A study of Mus musculus with 18 samples.

Results

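The 49 genes described here are the collagen genes and a set of matrix and contractile genes by which cultured fibroblasts are usually recognised. They were taken from the 45706 genes of the deposited count table by symbol, as Col followed by a type number, the letter a and a chain number, with Postn, Dcn, Lox, Thy1, Acta2, Fbn1, Lum, Sparc and Tagln added by name. Of 53 matching symbols, 44 of them collagens, the 49 with at least 10 counts over the 18 libraries were kept, which are 40 collagens and the 9 named genes. Col4a3, Col4a4, Col9a1 and Col19a1 stayed below this total. A filter on low counts left 43 of the 49 for the tests, and Col4a6, Col6a6, Col15a1, Col24a1, Col25a1 and Col28a1 were not tested.

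RNA was sequenced from mouse induced pluripotent stem cells (iPSCs) that were Hmga2 wt, all from 1 clone, or Hmga2 KO, from clones KO#1 and KO#2. At 0 h the cells were kept undifferentiated on a layer of inactivated fibroblasts with LIF and 2 kinase inhibitors, and at 24 h they had been plated on Geltrex, a basement membrane extract, with Activin A and bFGF to induce epiblast-like cells (EpiLCs). Each of the 6 groups had 3 libraries, described as independent biological replicates. Time, medium, substrate and feeder layer changed together and cannot be told apart. Hmga2 RNA lay between 13.3 and 22.3 CPM in wt at 0 h and between 5.51 and 5.93 CPM at 24 h, against 1.75 to 10.2 CPM in KO#1 at 0 h and 0.870 to 3.67 CPM at 24 h, without overlap at either time. In KO#2-labelled libraries it lay between 1.84 and 8.24 CPM at 0 h, below every wt library. At 24 h it stood at 10.4, 3.02 and 3.47 CPM in replicates 1, 2 and 3. Replicate 1 alone lay above wt, and the others lay below every wt library. The range thus overlapped wt through 1 library, and this clone is called here by its label only.

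Collagens are trimeric proteins of the extracellular matrix. Fibrillar types such as I, III and V form the fibrils of connective tissue and are made in bulk by fibroblasts, type IV forms the network of basement membranes and is made by many cells including the early embryo, and type VI, XII and others link fibrils to one another or to cells. In bulk RNA from a mixed culture, fewer fibroblasts and less collagen RNA per fibroblast cannot be told apart. In every library 8 markers of pluripotent cells summed to between 1934 and 3314 CPM, while 12 fibroblast genes outside the 49 (Prrx1, Twist1, Twist2, Pdgfrb, Fap, Mmp2, Serpinf1, Ccdc80, Thbs2, Fbln2, Mfap5 and Cdh11, called the fibroblast anchors) summed to between 22.7 and 306 CPM. Values are CPM, that is, counts per 1000000 counts of the library after scaling by its TMM factor.

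The stretches of 250 bases before the annotated start are shown for a pair of collagen genes that fell at 24 h in wt and KO#1 and for one that rose in every line, because these genes stand for both directions of change that the data hold. Each is from RefSeq on GRCm38.p6, reads 5′ to 3′ on the strand of the gene and holds no annotated exon. Capitals mark matches on either strand to the CCAAT box, to TATAA as the core of the TATA box and to the GC box, written GGGCGG, where overlapping matches share their letters.
Col3a1, chr1:45311288-45311537, plus strand: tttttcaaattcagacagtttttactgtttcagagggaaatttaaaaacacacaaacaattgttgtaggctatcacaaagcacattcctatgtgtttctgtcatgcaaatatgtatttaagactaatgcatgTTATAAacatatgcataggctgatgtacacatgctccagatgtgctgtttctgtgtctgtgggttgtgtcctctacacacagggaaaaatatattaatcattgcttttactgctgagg
Col5a1, chr2:27886175-27886424, plus strand: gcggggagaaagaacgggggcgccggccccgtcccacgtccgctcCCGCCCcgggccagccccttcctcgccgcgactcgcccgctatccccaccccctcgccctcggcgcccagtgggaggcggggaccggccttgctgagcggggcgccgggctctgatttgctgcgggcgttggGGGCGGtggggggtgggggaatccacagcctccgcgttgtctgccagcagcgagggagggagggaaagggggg
Col6a5, chr9:105960644-105960893, minus strand: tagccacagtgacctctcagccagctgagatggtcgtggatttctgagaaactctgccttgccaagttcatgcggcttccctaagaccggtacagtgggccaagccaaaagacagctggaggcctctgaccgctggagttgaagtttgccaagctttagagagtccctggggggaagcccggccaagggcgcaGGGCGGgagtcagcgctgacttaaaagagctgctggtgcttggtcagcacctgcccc
The Col3a1 stretch held TATAA on both strands, 118 to 113 bases before the start, the Col5a1 stretch held GGGCGG at 205 to 200 and at 73 to 68 bases, and the Col6a5 stretch held GGGCGG at 57 to 52 bases. Windows existed for 36 of the 49 genes, 39 windows in all. GGGCGG was present in 23 of these 39 (59%) and in 32.7% of all 32851 windows of this length, CCAAT in 12 (30.8% against 33.8%) and TATAA in 7 (17.9% against 22.8%). A match of letters is a description and not a binding site.

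Many of these genes fell between 0 h and 24 h, and in wt most of the tested ones did. In wt, 27 of the 43 tested genes were lower at 24 h and 4 were higher by edgeR's quasi-likelihood test at a Benjamini-Hochberg adjusted p under 0.05. Of all 16619 genes tested, 50.7% were called in this comparison, 24.7% lower and 26% higher. The median log2 fold change was -1.92 over the 43 genes and 0.03 over all genes. In KO#1, 22 were lower and 6 higher (background 40.8%, 20.6% lower and 20.1% higher), with a median of -1.43. In KO#2-labelled libraries, 15 were lower and 6 higher (background 26%, 13.3% lower and 12.7% higher), with a median of -0.85. When each library was left out in turn, 24 of the 31 calls in wt, 21 of 28 in KO#1 and 13 of 21 in KO#2-labelled libraries held every time.

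**Figure D1:**
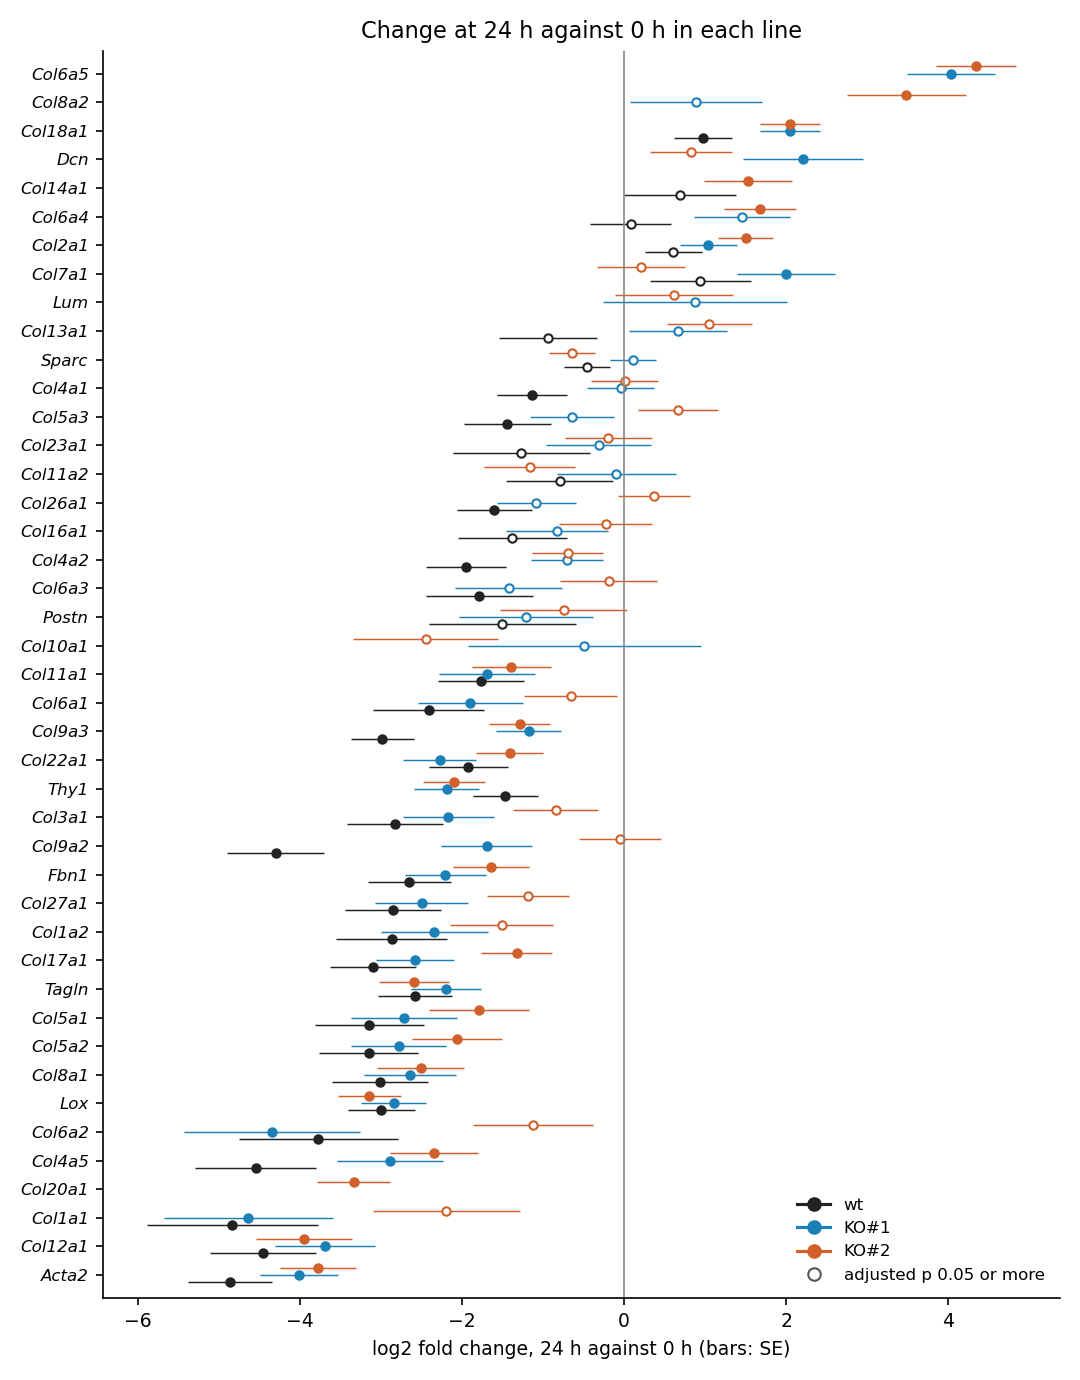
Log2 fold change at 24 h against 0 h (x axis, bars are the SE) of the 43 tested genes (y axis) in wt (black), KO#1 (blue) and KO#2-labelled libraries (orange), with open symbols where the adjusted p was 0.05 or more. The 8 values in which one of the groups held at most 3 counts are not drawn. Most points lie left of 0, while Col6a5 and Col18a1 lie right of 0 in every line drawn.

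The fibrillar collagens included some of the largest falls. Col1a1, which encodes the main chain of type I collagen, stood at 166, 79.6 and 27.1 CPM in wt, 166, 127 and 21.7 CPM in KO#1 and 72.6, 20.3 and 225 CPM in KO#2-labelled libraries at 0 h. At 24 h, Col1a1 stood at 3.52, 1.90 and 3.83 CPM in wt, 3.75, 3.57 and 5.16 CPM in KO#1 and 58.1, 4.95 and 6.6 CPM in KO#2-labelled libraries. All 3 wt and all 3 KO#1 libraries were lower at 24 h than at 0 h, whereas 24 h replicate 1 of KO#2 lay among the 0 h libraries of its clone. Its log2 fold change at 24 h was -4.84 ± 1.05 (SE) in wt (adjusted p = 0.00118, edgeR quasi-likelihood test), -4.64 ± 1.04 in KO#1 (adjusted p = 0.00216) and -2.19 ± 0.91 in KO#2-labelled libraries (adjusted p = 0.0844).

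Col1a2, the second chain of type I collagen, stood at 63.3, 57.4 and 15.3 CPM in wt, 87.3, 76.4 and 17.9 CPM in KO#1 and 59.8, 41.5 and 189.6 CPM in KO#2-labelled libraries at 0 h. At 24 h, Col1a2 stood at 6.97, 3.90 and 7.35 CPM in wt, 10.7, 10.9 and 13.9 CPM in KO#1 and 58.8, 13.4 and 29.9 CPM in KO#2-labelled libraries. Replicate 3 at 0 h was the lowest library of wt and of KO#1 for both chains, and the highest of KO#2. Col5a2, a chain of type V collagen that helps set fibril width, stood at 70.5, 35.5 and 17.8 CPM in wt, 122, 70.7 and 12.1 CPM in KO#1 and 65.8, 82.5 and 108 CPM in KO#2-labelled libraries at 0 h. At 24 h, Col5a2 stood at 3.52, 4.20 and 5.86 CPM in wt, 9.84, 9.09 and 10.6 CPM in KO#1 and 24.8, 13.5 and 23.1 CPM in KO#2-labelled libraries. It fell in every line, by 3.16 on the log2 scale in wt, by 2.78 in KO#1 and by 2.06 in KO#2-labelled libraries (edgeR adjusted p = 4.30e-04, 0.00137 and 0.0114), the last lost without KO#2 24 h replicate 2 (-1.83). Its partner Col5a1 stood at 74.1, 40.0 and 17.1 CPM in wt, 69.4, 58.6 and 15.8 CPM in KO#1 and 48.2, 21.6 and 109 CPM in KO#2-labelled libraries at 0 h. At 24 h, Col5a1 stood at 4.81, 3.90 and 5.74 CPM in wt, 6.39, 6.13 and 9.08 CPM in KO#1 and 32.6, 9.28 and 9.81 CPM in KO#2-labelled libraries. It was called lower in wt (-3.15 ± 0.67), KO#1 (-2.72 ± 0.66) and KO#2-labelled libraries (-1.79 ± 0.62), where 24 h replicate 1 lay among the 0 h libraries and the call was lost without KO#2 0 h replicate 1 (-1.92), KO#2 0 h replicate 3 (-1.02), KO#2 24 h replicate 2 (-1.49) or KO#2 24 h replicate 3 (-1.5). Col3a1, the chain of type III collagen, stood at 31.1, 26.1 and 9.0 CPM in wt, 44.2, 37.8 and 9.51 CPM in KO#1 and 49.3, 41.2 and 110.0 CPM in KO#2-labelled libraries at 0 h. At 24 h, Col3a1 stood at 3.34, 1.80 and 3.83 CPM in wt, 7.27, 4.39 and 8.27 CPM in KO#1 and 53.2, 20.7 and 37.6 CPM in KO#2-labelled libraries. It was called lower in wt (-2.83 ± 0.59) and KO#1 (-2.17 ± 0.56), while in KO#2-labelled libraries the times overlapped and the log2 fold change was -0.85 ± 0.52, not called. Of the 10 fibrillar chains tested, 8 fell in wt, 7 in KO#1 and 3 in KO#2-labelled libraries, where 24.7%, 20.6% and 13.3% of all genes fell. The 3 were Col5a1, Col5a2 and Col11a1, and each call was lost without KO#2 24 h replicate 2 (-1.49, -1.83 and -1.39). That of Col11a1 was lost in 5 of 6 runs with 1 library left out. Col2a1, the cartilage fibrillar chain, was the one called higher, in KO#1 (1.04 ± 0.36, lost without KO#1 0 h replicate 2 (0.93), KO#1 0 h replicate 3 (1.00), KO#1 24 h replicate 2 (1.01) or KO#1 24 h replicate 3 (0.77), and with library sizes in place of TMM factors, at 0.28) and in KO#2-labelled libraries (1.5 ± 0.34).

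The contractile and surface genes fell in all 3 lines. Acta2, smooth muscle actin, which marks activated fibroblasts, stood at 83.9, 37.2 and 38.3 CPM in wt, 131, 74.5 and 103 CPM in KO#1 and 38.6, 83.2 and 146 CPM in KO#2-labelled libraries at 0 h. At 24 h, Acta2 stood at 2.34, 1.70 and 1.30 CPM in wt, 6.76, 8.89 and 3.54 CPM in KO#1 and 4.86, 6.15 and 8.38 CPM in KO#2-labelled libraries. No library of 24 h reached the lowest library of 0 h, and the log2 fold change was -4.87 ± 0.52 in wt (edgeR adjusted p = 2.15e-06), -4.02 ± 0.48 in KO#1 (adjusted p = 1.26e-05) and -3.78 ± 0.47 in KO#2-labelled libraries (adjusted p = 2.45e-05). Tagln, an actin-binding protein of smooth muscle and fibroblasts, stood at 25.9, 15.9 and 19.8 CPM in wt, 50.3, 28.0 and 42.0 CPM in KO#1 and 18.8, 43.1 and 64.8 CPM in KO#2-labelled libraries at 0 h. At 24 h, Tagln stood at 4.45, 3.70 and 1.98 CPM in wt, 9.48, 11.3 and 5.47 CPM in KO#1 and 4.70, 5.80 and 10.4 CPM in KO#2-labelled libraries. It fell by 2.59, 2.20 and 2.60 on the log2 scale. Unlike type I collagen, Acta2 and Tagln were not low in replicate 3 of KO#1 at 0 h, where they stood above replicate 2.

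Thy1, a surface protein of fibroblasts, stood at 8.52, 6.51 and 5.50 CPM in wt, 14.5, 8.35 and 7.99 CPM in KO#1 and 11, 13.1 and 32.3 CPM in KO#2-labelled libraries at 0 h. At 24 h, Thy1 stood at 2.93, 1.5 and 2.72 CPM in wt, 2.20, 2.35 and 2.18 CPM in KO#1 and 5.12, 3.52 and 4.47 CPM in KO#2-labelled libraries. It fell by 1.47, 2.19 and 2.10 on the log2 scale, and the 2 times did not overlap in any line. Among 6 other smooth muscle markers, which were read beside Acta2 and Tagln, Cnn1 and Myl9 were called lower in all 3 lines and Actg2 in both clones, where 24.7%, 20.6% and 13.3% of all genes were lower in wt, KO#1 and KO#2-labelled libraries. Des, Tpm2 and Myh11 were not called in any line, with log2 fold changes of -0.20, 0.84 and 0.98 in wt. In wt the sum of these 6 was 23.9 to 41.9 CPM at 0 h and 20.0 to 26.4 CPM at 24 h, where the times overlap. In KO#1 it was 40.3 to 71.1 CPM at 0 h and 22.7 to 32.3 CPM at 24 h, without overlap. For KO#2-labelled libraries it was 30.0 to 69.4 CPM and 20.3 to 22.7 CPM, also without overlap. The part of these markers in the Acta2 and Tagln changes was not tested.

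Matrix proteins that fibroblasts deposit with the collagens behaved in different ways. Lox, the enzyme that cross-links collagen and elastin, stood at 30.5, 33.8 and 12.3 CPM in wt, 53.4, 39.9 and 15.6 CPM in KO#1 and 117, 119 and 156 CPM in KO#2-labelled libraries at 0 h. At 24 h, Lox stood at 3.57, 2.40 and 3.39 CPM in wt, 5.14, 5.52 and 4.41 CPM in KO#1 and 18.3, 12.6 and 13.4 CPM in KO#2-labelled libraries. It fell in wt (-3.00 ± 0.41), in KO#1 (-2.85 ± 0.40) and in KO#2-labelled libraries (-3.15 ± 0.39), with no overlap between times (edgeR adjusted p = 2.27e-05, 5.92e-05 and 2.56e-05). Fbn1, the microfibril protein fibrillin, stood at 18.7, 27.3 and 9.34 CPM in wt, 26.6, 23.4 and 12.7 CPM in KO#1 and 33.0, 21.1 and 80.9 CPM in KO#2-labelled libraries at 0 h. At 24 h, Fbn1 stood at 2.46, 1.80 and 4.38 CPM in wt, 4.33, 3.88 and 5.16 CPM in KO#1 and 20.0, 9.01 and 14.3 CPM in KO#2-labelled libraries. It fell by 2.65 in wt, by 2.21 in KO#1 and by 1.64 in KO#2-labelled libraries, where the call was lost without KO#2 0 h replicate 3 (-0.91), KO#2 24 h replicate 2 (-1.39) or KO#2 24 h replicate 3 (-1.63). Postn, a matrix protein of remodelling tissue, was not called in any line, with values from 2.42 to 34.7 CPM at 0 h and from 0.432 to 14.1 CPM at 24 h.

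Sparc, a calcium-binding matrix protein that is also made by early embryonic cells, had the highest level per length of all 49 genes, 70.3 CPM per kilobase of exon as a mean over the 18 libraries, against 26.3 for Col18a1, 19.7 for Acta2 and 8.44 for Col1a1. It stood at 397, 292 and 284 CPM in wt, 308, 333 and 269 CPM in KO#1 and 237, 258 and 248 CPM in KO#2-labelled libraries at 0 h. At 24 h, Sparc stood at 184, 216 and 307 CPM in wt, 245, 263 and 475 CPM in KO#1 and 203, 156 and 116 CPM in KO#2-labelled libraries. It was not called in any of the 9 comparisons, although the paired fit of KO#1 against wt at 24 h, described with the clones, called it higher (0.47 ± 0.09). Its log2 fold change at 24 h was -0.46 ± 0.28 in wt, 0.11 ± 0.28 in KO#1 and -0.65 ± 0.28 in KO#2-labelled libraries (edgeR adjusted p = 0.186, 0.775 and 0.103). A p above the threshold does not show that Sparc was unchanged.

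**Figure D2:**
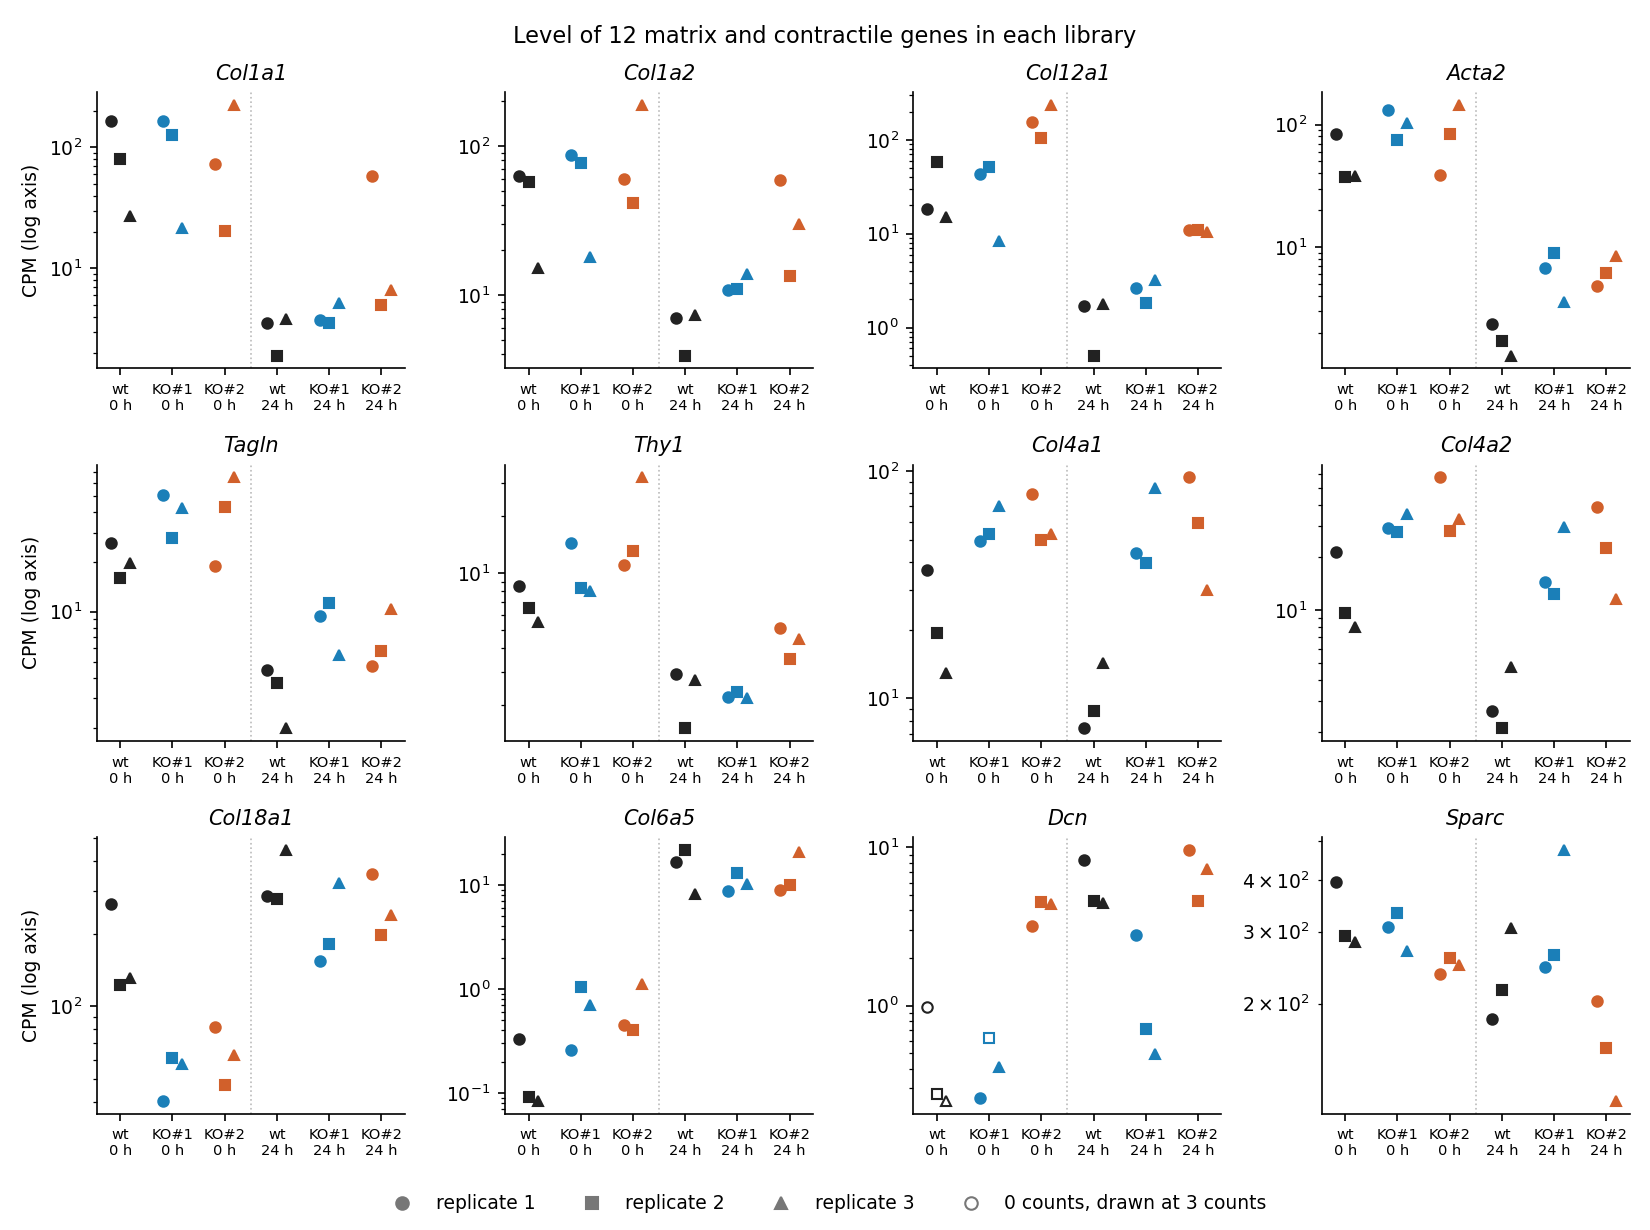
Level (CPM, log axis) of 12 genes in each of the 18 libraries, by line and time on the x axis, with a symbol for each replicate number and open symbols for libraries with 0 counts, drawn at 3 counts. Acta2 and Tagln are lower at 24 h and Col18a1 and Col6a5 higher in each line, type I collagen is lower at 24 h in wt and KO#1 and overlaps between the times in KO#2-labelled libraries, Col4a1 and Col4a2 are lower in wt than in the KO clones at 24 h, and Sparc lies between 116 and 475 CPM.

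Dcn, which encodes the small proteoglycan decorin and is a usual marker of fibroblasts, did not follow the fibrillar collagens. It had 0 counts in all 3 wt libraries at 0 h, where 3 counts would be between 0.25 and 0.983 CPM, and stood at 0.260, 0 and 0.408 CPM in KO#1 and 3.17, 4.54 and 4.41 CPM in KO#2-labelled libraries. At 24 h, Dcn stood at 8.32, 4.61 and 4.44 CPM in wt, 2.79, 0.715 and 0.497 CPM in KO#1 and 9.66, 4.56 and 7.29 CPM in KO#2-labelled libraries. In wt it was at least 11.5-fold higher at 24 h than the level of 3 counts per library at 0 h (edgeR adjusted p = 2.46e-05). It was also called higher in KO#1 at 24 h (2.21 ± 0.74), a call lost without KO#1 0 h replicate 1 (2.16), KO#1 0 h replicate 2 (1.89) or KO#1 24 h replicate 1 (1.03), and was not called in KO#2-labelled libraries (0.83 ± 0.51). The log2 difference in the 24 h response between KO#2-labelled libraries and wt was called (edgeR adjusted p = 0.0130), with the call lost without wt 0 h replicate 3 (adjusted p = 0.0503). Lum, the related proteoglycan lumican, had 1 count in wt at 0 h and 0.0617 to 0.293 CPM at 24 h, and was not called in any line.

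The chains of the beaded-filament collagen VI split. Col6a3, its longest classical chain, stood at 11.1, 12.4 and 11.2 CPM in wt, 11.3, 7.93 and 7.29 CPM in KO#1 and 10.5, 5.80 and 63.6 CPM in KO#2-labelled libraries at 0 h. At 24 h, Col6a3 stood at 2.87, 3.20 and 3.95 CPM in wt, 3.97, 2.86 and 2.98 CPM in KO#1 and 41.2, 9.59 and 19.2 CPM in KO#2-labelled libraries. It fell in wt (-1.79 ± 0.66), a call lost without wt 0 h replicate 2 (-1.73), wt 0 h replicate 3 (-1.82), wt 24 h replicate 1 (-1.70) or wt 24 h replicate 2 (-1.79). Col6a1 stood at 6.23, 8.53 and 2.25 CPM in wt, 10.3, 8.35 and 3.44 CPM in KO#1 and 8.97, 8.09 and 38.2 CPM in KO#2-labelled libraries at 0 h. At 24 h, Col6a1 stood at 0.645, 1.00 and 1.48 CPM in wt, 1.47, 1.43 and 2.80 CPM in KO#1 and 17.7, 6.34 and 10.9 CPM in KO#2-labelled libraries. It fell in wt (-2.42 ± 0.69) and KO#1 (-1.90 ± 0.65), and the calls were lost without wt 0 h replicate 2 (-1.86) and without KO#1 0 h replicate 1 (-1.54), KO#1 0 h replicate 2 (-1.80), KO#1 24 h replicate 1 (-1.74) or KO#1 24 h replicate 2 (-1.76). In KO#2-labelled libraries neither chain was called, and the 2 times overlapped, with replicate 3 at 0 h and replicate 1 at 24 h the highest.

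Col6a5, a paralogue of Col6a3 on chromosome 9 (105856078 to 105960643, minus strand, GRCm38), rose in every line. It stood at 0.328, 0.0917 and 0.0833 CPM in wt, 0.260, 1.04 and 0.7 CPM in KO#1 and 0.447, 0.404 and 1.10 CPM in KO#2-labelled libraries at 0 h, and the 3 wt values are 1 count each. At 24 h, Col6a5 stood at 16.8, 21.8 and 8.15 CPM in wt, 8.82, 13.0 and 10.1 CPM in KO#1 and 8.88, 10.0 and 20.9 CPM in KO#2-labelled libraries. No library of 0 h reached those of 24 h. The ratio of pooled counts in wt was 127-fold (95% counting interval 43.3 to 618), and the log2 fold change was 4.03 ± 0.54 in KO#1 and 4.35 ± 0.50 in KO#2-labelled libraries (edgeR adjusted p = 1.24e-06, 3.82e-05 and 1.06e-05). Its upstream stretch is the third shown above. Col6a4, the next gene of this cluster, was called higher in KO#2-labelled libraries (1.68 ± 0.44) and not in wt (0.08 ± 0.49).

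Col18a1, the basement membrane collagen from which endostatin is released, was the collagen with the highest level per length and also rose. It stood at 265, 122 and 130.4 CPM in wt, 40.4, 60.9 and 57.6 CPM in KO#1 and 81.6, 47.1 and 62.5 CPM in KO#2-labelled libraries at 0 h. At 24 h, Col18a1 stood at 287, 279 and 445 CPM in wt, 154, 180.5 and 323 CPM in KO#1 and 355, 197 and 239.9 CPM in KO#2-labelled libraries. It rose in KO#1 (2.05 ± 0.37) and in KO#2-labelled libraries (2.05 ± 0.37) with no overlap between times (edgeR adjusted p = 4.24e-04 and 6.03e-04). In wt, where replicate 1 at 0 h was close to the 24 h libraries, the log2 fold change was 0.97 ± 0.36 (edgeR adjusted p = 0.0305), a call lost without wt 0 h replicate 2 (0.78), wt 0 h replicate 3 (0.81) or wt 24 h replicate 3 (0.67), and with library sizes in place of TMM factors (0.45).

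The type IV chains Col4a1 and Col4a2, which pair in the basement membrane network, start beside each other on chromosome 8 in opposite directions (Col4a1 11198423 to 11312826, minus strand, and Col4a2 11312805 to 11449287, plus strand, GRCm38). Their first bases overlap by 22 bases, shown on the plus strand because reads there may not be told apart between the genes if strand was not used in counting.
Col4a1/Col4a2 overlap, chr8:11312805-11312826: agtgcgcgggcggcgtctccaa
Col4a1 stood at 36.7, 19.4 and 13.0 CPM in wt, 49.1, 53.0 and 70.4 CPM in KO#1 and 79.2, 50.1 and 53.2 CPM in KO#2-labelled libraries at 0 h. At 24 h, Col4a1 stood at 7.38, 8.81 and 14.4 CPM in wt, 43.9, 39.5 and 84.0 CPM in KO#1 and 94.2, 59.0 and 29.9 CPM in KO#2-labelled libraries. The wt libraries were the lowest at both times. It fell in wt (-1.14 ± 0.43), a call lost without wt 0 h replicate 1 (-0.70), wt 24 h replicate 1 (-0.96) or wt 24 h replicate 2 (-1.07), and was not called in KO#1 (-0.04 ± 0.41) or KO#2-labelled libraries (0.00).

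Col4a2 stood at 21.3, 9.54 and 8.0 CPM in wt, 29.3, 28.0 and 35.4 CPM in KO#1 and 57.3, 28.1 and 32.9 CPM in KO#2-labelled libraries at 0 h. At 24 h, Col4a2 stood at 2.64, 2.10 and 4.69 CPM in wt, 14.5, 12.4 and 29.8 CPM in KO#1 and 38.7, 22.7 and 11.5 CPM in KO#2-labelled libraries. It fell in wt (-1.96 ± 0.50, edgeR adjusted p = 0.00347), while its log2 fold change was -0.71 ± 0.45 in KO#1 and -0.70 ± 0.44 in KO#2-labelled libraries, not called. Col4a5, an X-linked type IV chain, stood at 7.87, 3.21 and 1.67 CPM in wt, 5.47, 4.17 and 1.23 CPM in KO#1 and 9.09, 8.04 and 8.72 CPM in KO#2-labelled libraries at 0 h. At 24 h, Col4a5 stood at 0.234, 0 and 0.185 CPM in wt, 0.661, 0.511 and 0.249 CPM in KO#1 and 1.88, 1.16 and 2.04 CPM in KO#2-labelled libraries. It fell in all 3 lines, by 4.55, 2.89 and 2.35 on the log2 scale.

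Of the fibril-associated collagens, Col12a1, which binds to the surface of type I fibrils, stood at 18.4, 57.7 and 15.0 CPM in wt, 43.4, 51.1 and 8.34 CPM in KO#1 and 156, 105 and 238 CPM in KO#2-labelled libraries at 0 h. At 24 h, Col12a1 stood at 1.70, 0.501 and 1.79 CPM in wt, 2.64, 1.84 and 3.23 CPM in KO#1 and 11, 10.8 and 10.3 CPM in KO#2-labelled libraries. It fell in all 3 lines without overlap (-4.46 ± 0.65, -3.69 ± 0.62 and -3.95 ± 0.60, edgeR adjusted p = 4.10e-05, 2.45e-04 and 1.45e-04), and KO#2-labelled libraries held more of it at both times. Col22a1, a collagen of tissue junctions, stood at 3.61, 2.66 and 3.5 CPM in wt, 10.3, 7.72 and 4.20 CPM in KO#1 and 10.0, 7.06 and 5.42 CPM in KO#2-labelled libraries at 0 h. At 24 h, Col22a1 stood at 0.586, 0.601 and 1.30 CPM in wt, 1.47, 0.613 and 2.30 CPM in KO#1 and 2.61, 3.48 and 2.34 CPM in KO#2-labelled libraries. It fell by 1.92, 2.28 and 1.41 on the log2 scale, and the last of these calls was lost without KO#2 0 h replicate 1 (-1.14) or KO#2 24 h replicate 3 (-1.29).

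Col9a2, a chain of the cartilage-associated collagen IX, was highest in wt at 0 h. It stood at 27.2, 10.5 and 13.7 CPM in wt, 1.30, 3.13 and 8.46 CPM in KO#1 and 4.83, 3.42 and 1.82 CPM in KO#2-labelled libraries at 0 h. At 24 h, Col9a2 stood at 1.11, 0.701 and 0.679 CPM in wt, 1.32, 1.84 and 1.06 CPM in KO#1 and 2.25, 4.06 and 3.39 CPM in KO#2-labelled libraries. It fell in wt (-4.30 ± 0.60, edgeR adjusted p = 2.52e-05) and in KO#1 (-1.70 ± 0.56), the latter call lost without KO#1 0 h replicate 3 (-0.61), KO#1 24 h replicate 1 (-1.68) or KO#1 24 h replicate 3 (-1.54). In KO#2-labelled libraries the log2 fold change was -0.05 ± 0.51, not called, and the difference of this response from that of wt was 4.25 ± 0.77 (edgeR adjusted p = 0.0130). The other tested chain of collagen IX, Col9a3, fell in wt (-2.99 ± 0.39), in KO#1 (-1.18 ± 0.40, lost without KO#1 0 h replicate 1 (-0.76), KO#1 24 h replicate 1 (-1.19) or KO#1 24 h replicate 2 (-1.09)) and in KO#2-labelled libraries (-1.29 ± 0.37, lost without KO#2 0 h replicate 1 (-1.07) or KO#2 24 h replicate 3 (-1.10)).

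The short-chain collagens form hexagonal networks. Col8a1 stood at 10.2, 10.4 and 3.83 CPM in wt, 18.1, 10.2 and 3.15 CPM in KO#1 and 9.30, 11.2 and 24.2 CPM in KO#2-labelled libraries at 0 h. At 24 h, Col8a1 stood at 0.703, 0.701 and 1.48 CPM in wt, 1.40, 1.74 and 1.80 CPM in KO#1 and 1.88, 2.63 and 3.26 CPM in KO#2-labelled libraries, and it fell in all 3 lines (-3.02 ± 0.60, -2.65 ± 0.57 and -2.51 ± 0.53). Its partner Col8a2 went the other way, with 0, 0 and 0.167 CPM in wt, 0.391, 0 and 0.292 CPM in KO#1 and 0.0812, 0.0449 and 0.192 CPM in KO#2-labelled libraries at 0 h. At 24 h, Col8a2 stood at 0.938, 0.200 and 0.679 CPM in wt, 0.367, 0.613 and 0.497 CPM in KO#1 and 0.522, 1.86 and 1.35 CPM in KO#2-labelled libraries, which was a ratio of 8.70-fold (95% counting interval 2.20 to 75.2) in wt, with the call lost without wt 0 h replicate 2 (fitted log2 fold change 2.24) or wt 24 h replicate 1 (fitted log2 fold change 2.49), and a log2 fold change of 3.49 ± 0.73 in KO#2-labelled libraries. Col10a1, a collagen of growth plate cartilage, had 0.983, 0.0917 and 0 CPM in wt, 0.130, 0.417 and 0.117 CPM in KO#1 and 0.568, 0.674 and 3.45 CPM in KO#2-labelled libraries at 0 h. At 24 h, Col10a1 had 0, 0 and 0.0617 CPM in wt, 0.147, 0.102 and 0.124 CPM in KO#1 and 0.0522, 0.0773 and 0.695 CPM in KO#2-labelled libraries, and it was not called in any line.

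Col7a1, which anchors epithelium to the matrix below, stood at 5.24, 0.734 and 1.25 CPM in wt, 2.08, 1.04 and 1.52 CPM in KO#1 and 3.61, 1.57 and 4.89 CPM in KO#2-labelled libraries at 0 h. At 24 h, Col7a1 stood at 2.11, 4.31 and 4.94 CPM in wt, 4.92, 5.31 and 8.64 CPM in KO#1 and 6.27, 2.59 and 2.82 CPM in KO#2-labelled libraries, and it rose in KO#1 (2.00 ± 0.61), a call lost without KO#1 0 h replicate 2 (1.82). Col26a1 stood at 9.83, 7.98 and 14.8 CPM in wt, 5.21, 6.68 and 1.58 CPM in KO#1 and 2.88, 2.92 and 4.07 CPM in KO#2-labelled libraries at 0 h. At 24 h, Col26a1 stood at 2.99, 2.60 and 5.12 CPM in wt, 1.18, 2.76 and 2.18 CPM in KO#1 and 2.72, 5.76 and 4.21 CPM in KO#2-labelled libraries, and it fell in wt (-1.60 ± 0.46), a call lost without wt 0 h replicate 3 (-1.29). These 2 genes had no shared direction.

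The transmembrane collagens bind neighbouring cells or matrix. Col17a1, part of the hemidesmosome, stood at 3.93, 2.11 and 3.17 CPM in wt, 6.64, 5.22 and 2.45 CPM in KO#1 and 3.94, 2.25 and 2.97 CPM in KO#2-labelled libraries at 0 h. At 24 h, Col17a1 stood at 0.410, 0.200 and 0.370 CPM in wt, 0.735, 0.409 and 1.12 CPM in KO#1 and 1.51, 1.43 and 0.695 CPM in KO#2-labelled libraries, and it fell by 3.10 in wt, 2.58 in KO#1 and 1.33 in KO#2-labelled libraries, where the call was lost without KO#2 0 h replicate 1 (-1.10), KO#2 0 h replicate 3 (-1.35), KO#2 24 h replicate 2 (-1.47) or KO#2 24 h replicate 3 (-1.04). Col13a1 stood at 1.97, 0.550 and 1.83 CPM in wt, 0.651, 1.88 and 0.408 CPM in KO#1 and 1.01, 0.854 and 1.10 CPM in KO#2-labelled libraries at 0 h. At 24 h, Col13a1 stood at 0.703, 1.2 and 0.309 CPM in wt, 1.98, 1.23 and 0.870 CPM in KO#1 and 2.19, 2.05 and 1.95 CPM in KO#2-labelled libraries. Neither it nor Col23a1 was called between the times, and Col23a1 stood at 0.328, 0.183 and 0.25 CPM in wt, 0.260, 0.417 and 0.525 CPM in KO#1 and 0.609, 0.404 and 0.335 CPM in KO#2-labelled libraries at 0 h. At 24 h, Col23a1 stood at 0.117, 0.100 and 0.0617 CPM in wt, 0.367, 0.409 and 0.249 CPM in KO#1 and 0.209, 0.773 and 0.174 CPM in KO#2-labelled libraries.

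To separate genes that kept step with fibroblast RNA from those that did not, each gene was set against the 12 fibroblast anchors of the same library. The SD over the 18 libraries of the gene's log2 CPM minus the mean log2 CPM of the anchors was divided by the SD of the gene's own log2 CPM. A value near 0 means that the gene and the anchors kept one ratio, and a value of 1 or more that setting the gene against the anchors removed none of its spread. The value also depends on the size of the gene's own SD. A gene that follows the anchors with a much smaller or larger SD than theirs cannot come near 0. Own SDs ran from 0.47 (Sparc) to 2.46 (Col12a1), so the classes reflect in part how far a gene changed. Below 0.5, called in step, were Fbn1 (0.44), Thy1 (0.46), Col6a1 (0.48) and Col3a1 (0.48). Col1a2 (0.52) lay just outside, and 23 genes in all lay between 0.5 and 1, among them Lox, Col5a2, Col5a1, Col12a1, Col1a1 (0.74), Acta2 (0.76) and Col4a1 (0.85), with Lum (0.87) the last of them.

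The 16 genes at 1 or more began with Col9a2 (1.02) and ended with Col18a1 (1.69), Col2a1 (2.05) and Sparc (2.34), and included Dcn (1.06), Col6a5 (1.24), Col7a1, Col8a2, Col11a2, Col13a1, Col14a1, Col23a1, Col26a1, Col5a3, Col6a4 and Col9a3. This is a description with no test, the libraries share time and line as sources of spread, and genes of low counts carry counting noise. The mean of the anchors was used to set the classes and their summed level was itself lower at 24 h, so the direction in which each class changed with time is not independent of the classes and is not counted.

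**Figure D3:**
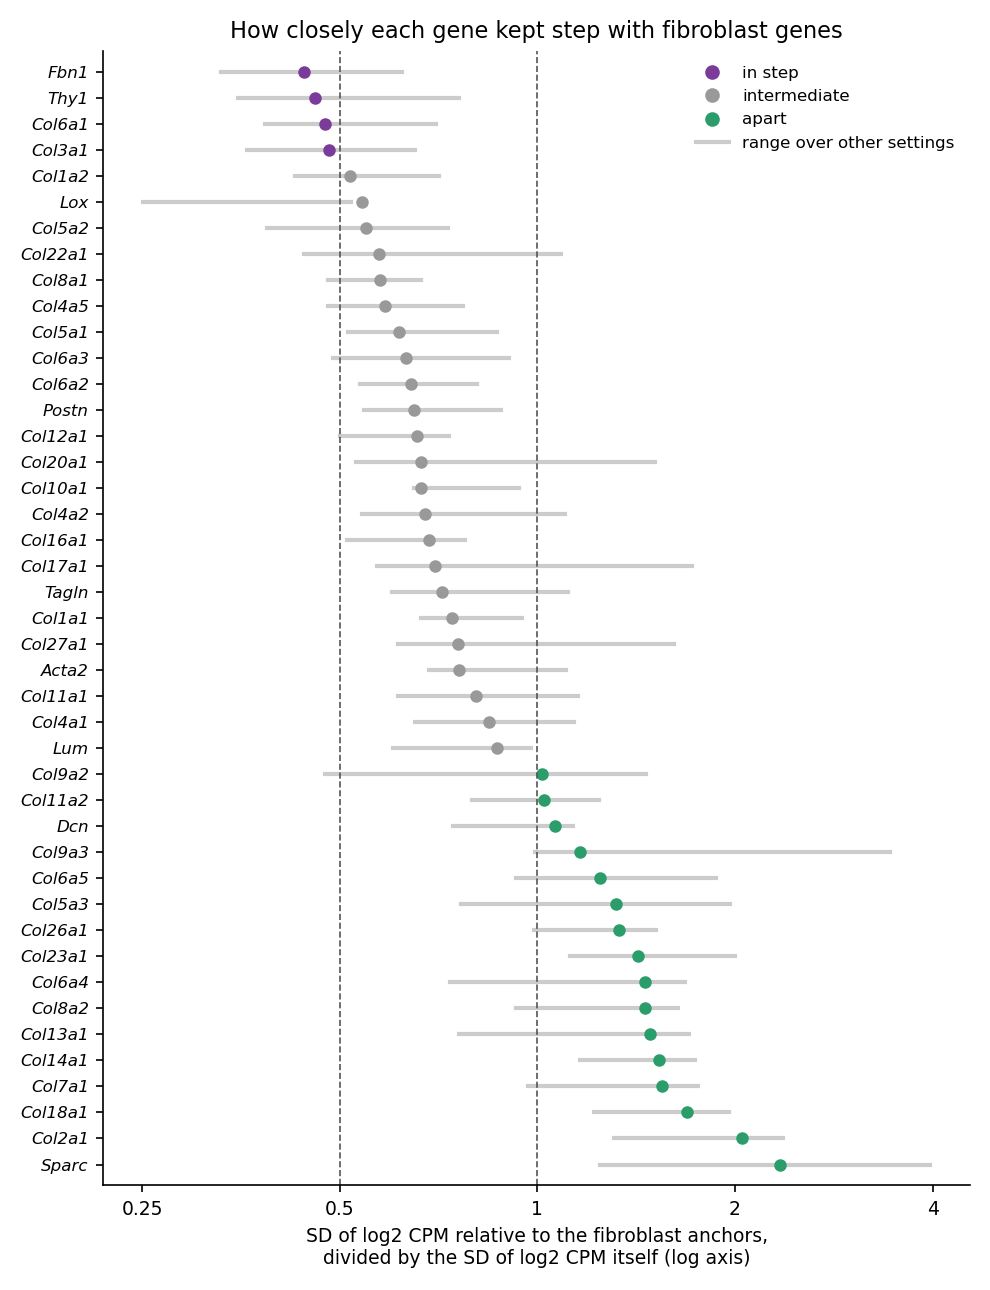
Ratio of spreads (x axis, log scale) of the 43 tested genes (y axis), with dashed lines at 0.5 and 1 and grey bars for the range over 7 other settings of the measure. Fbn1, Thy1, Col6a1 and Col3a1 lie below 0.5, and Sparc, Col2a1 and Col18a1 lie farthest above 1.

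The anchors were not uniform. Twist1 (2.79) and Mfap5 (1.81) did not keep step with the other anchors on the same measure, and without them 8 genes were in step in place of 4. Without KO#2 0 h replicate 3, 1 gene was in step. On deviations from the group means, which leave only the spread within groups, 0 genes were in step, and with library sizes in place of TMM factors 11 were. In the 24 h libraries alone Thy1 (0.76), Col6a1 (0.55) and Col3a1 (0.54) were not below 0.5, whereas Fbn1, Lox (0.25), Col5a2 (0.39), Col1a2 (0.48), Col9a2 (0.48) and Col4a5 (0.49) were, so which genes are in step depends on the libraries used. Of the 12 anchors, 7 were called lower at 24 h in wt and 2 higher (24.7% and 26% of all genes), 7 lower in KO#1 (20.6%) and 4 lower in KO#2-labelled libraries (13.3%). Their sum was 87.5, 88.0 and 46.0 CPM in wt, 145, 99.3 and 56.4 CPM in KO#1 and 172, 188 and 306 CPM in KO#2-labelled libraries at 0 h. At 24 h it was 32.8, 22.7 and 33.5 CPM in wt, 34.5, 33.0 and 41.0 CPM in KO#1 and 104, 76.8 and 96.7 CPM in KO#2-labelled libraries, so that anchor RNA was still counted after plating on Geltrex, and none of the 12 was at 0 in a whole group.

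**Figure D4:**
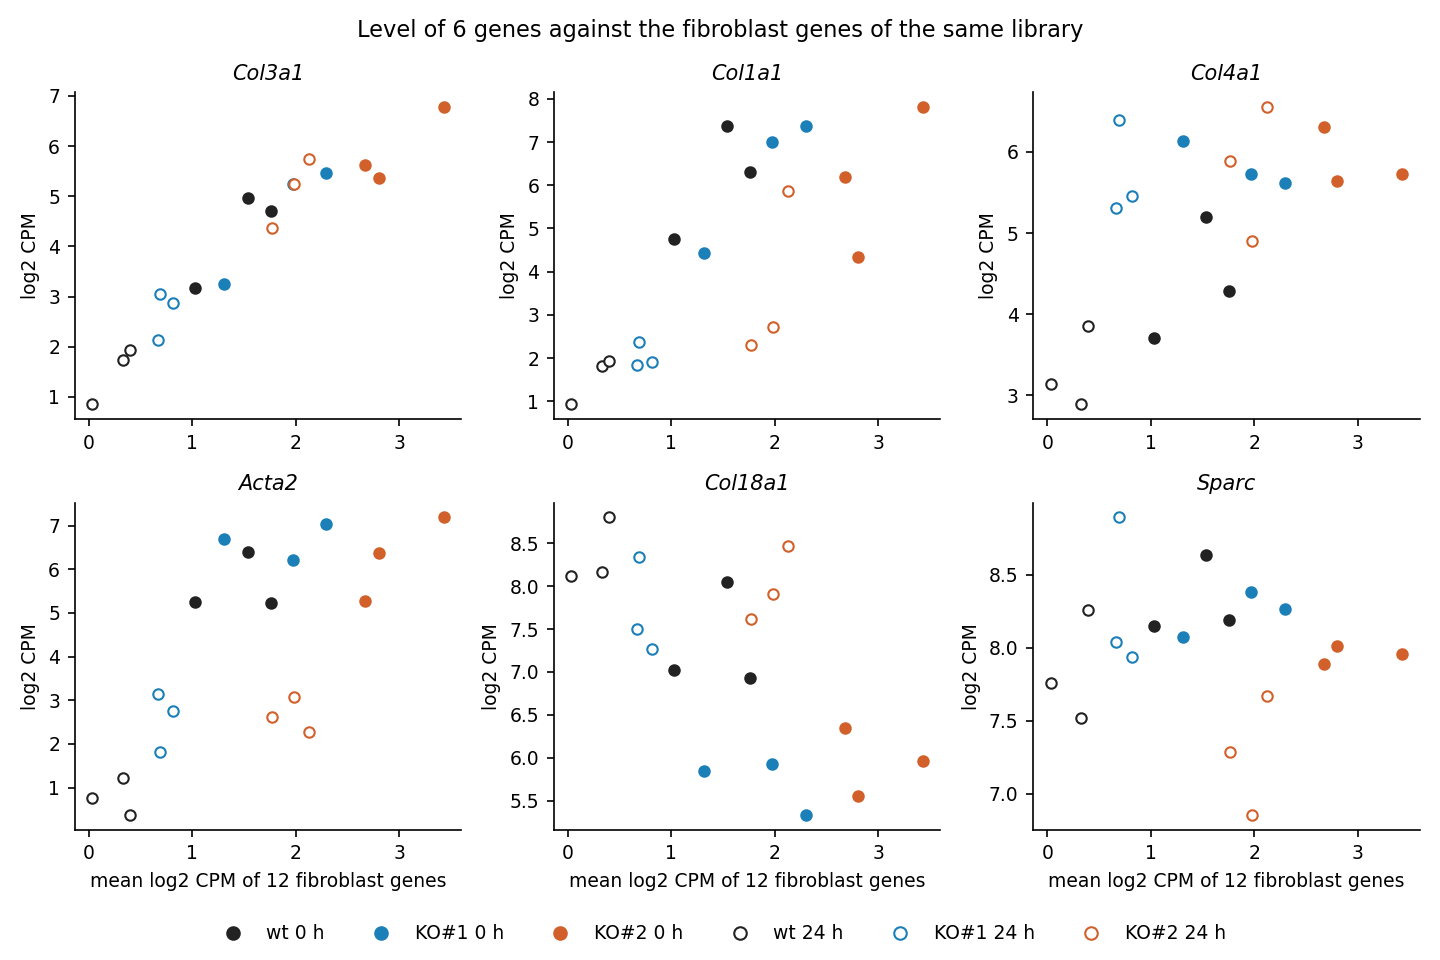
Log2 CPM of 6 genes (y axes) against the mean log2 CPM of the 12 fibroblast anchors (x axes) in each of the 18 libraries, filled at 0 h and open at 24 h, with wt in black, KO#1 in blue and KO#2-labelled libraries in orange. Col3a1 lies on a single band (ratio of spreads 0.48), whereas Col4a1, Col18a1 and Sparc do not.

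The KO clones were then compared with wt at each time. These comparisons share the same wt libraries, so the values of the 2 clones are given side by side without any measure of their likeness. All wt libraries came from 1 clone and each KO group from 1 clone, so differences of genotype and of clone cannot be told apart. At 0 h, KO#1 had 3 called genes, all lower than wt (background 6.67% of all genes called, 2.68% lower and 3.99% higher). They were Col18a1 (-1.70 ± 0.37, edgeR adjusted p = 0.00757), Col9a3 (-1.96 ± 0.38, adjusted p = 0.00324) and Col9a2 (-1.90 ± 0.53, adjusted p = 0.0360). The Col9a2 call was lost without wt 0 h replicate 1 (-1.42), wt 0 h replicate 3 (-2.03), KO#1 0 h replicate 1 (-1.47) or KO#1 0 h replicate 2 (-1.71). No fibrillar chain was called, and Col1a1 differed by 0.22 ± 0.88.

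In KO#2-labelled libraries at 0 h, 14 genes were higher and 4 lower than in wt (background 38.1%, of which 21.5% higher and 16.6% lower). Without wt 0 h replicate 3, the wt library with the lowest summed CPM of the fibrillar chains (102 CPM), 9 were called, and without KO#2 0 h replicate 3 and 24 h replicate 1, the highest of this clone at each time in summed anchors, 12 were called. The lower genes were Col18a1 (-1.43 ± 0.36), Col9a2 (-2.32 ± 0.53), Col9a3 (-2.06 ± 0.36) and Col26a1 (-1.73 ± 0.46), and these 4 calls held with each library left out, though that of Col18a1 was lost with library sizes in place of TMM factors (-0.91, adjusted p = 0.0996). Of the fibroblast anchors, 6 of 12 were called higher and 0 lower, and their sum did not overlap wt (172 to 306 against 46.0 to 88.0 CPM). On TMM-scaled CPM the summed pluripotent markers lay lower than in wt without overlap (1935 to 2207 against 2769 to 3222 CPM). Of the 8, 3 were called lower and 1 higher, and their part in these differences was not tested. This order of the sums depends on the TMM factors, since library sizes alone moved the median log2 difference of all genes from 0.10 to 0.54. The higher genes whose calls also held were Lox (2.37 ± 0.39, edgeR adjusted p = 3.08e-04), Col12a1 (2.43 ± 0.56, adjusted p = 0.00343), Dcn, at least 8.03-fold higher (adjusted p = 1.63e-04), and Lum, at a ratio of 41.0-fold (95% counting interval 7.2 to 1634) (adjusted p = 0.00755).

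The other 10 calls at 0 h were each lost without at least 1 library. Without KO#2 0 h replicate 3, the calls of Col3a1 (1.62 ± 0.54 with it, 1.06 without), Col6a1 (1.71 ± 0.61, 0.61), Fbn1 (1.29 ± 0.47, 0.56), Thy1 (1.49 ± 0.38, 0.85), Col10a1 (3.04 ± 1.16, 1.69) and Col6a5 (5.49-fold (95% counting interval 1.76 to 27.7), log2 1.78) were lost. Without KO#2 0 h replicate 1, those of Col4a1 (1.44 ± 0.43, 1.2), Col4a2 (1.67 ± 0.47, 1.30), Col20a1 (1.34 ± 0.43, 0.76) and Col22a1 (1.22 ± 0.44, 0.96) were lost. Without wt 0 h replicate 3, the same held for Col3a1 (1.23), Col4a1 (1.14), Col4a2 (1.41), Col6a1 (1.29), Col6a5 (2.06), Col10a1 (2.11), Col20a1 (1.29), Col22a1 (1.30) and Fbn1 (0.95). Without wt 0 h replicate 1, it held for Col6a1 (1.73), Col22a1 (1.25) and Fbn1 (1.26), and without wt 0 h replicate 2 for Col6a5 (2.16), Col10a1 (2.52), Col20a1 (1.24) and Col22a1 (1.08). Without KO#2 0 h replicate 2, it held for Col22a1 (1.27). DESeq2 did not call Col10a1 (adjusted p = 0.0836).

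At 24 h, 26 of the 43 genes were higher in KO#2-labelled libraries than in wt and 0 were lower, against a background of 37.3% of all genes called, 21.3% higher and 16% lower. The median log2 difference was 1.82 over the 43 genes and 0.20 over all genes. The calls that held without each library included Lum (3.92 ± 0.95), Col6a2 (3.79 ± 0.95), Col3a1 (3.61 ± 0.59, edgeR adjusted p = 2.01e-04), Col6a1 (3.47 ± 0.68), Col4a5 (3.36 ± 0.73), Col12a1 (2.94 ± 0.63) and Col4a2 (2.93 ± 0.49, adjusted p = 2.29e-04). Col6a3 (2.80), Col4a1 (2.58), Fbn1 (2.30), Lox (2.22), Col5a2 (2.17), Acta2 (1.85), Col17a1 (1.81) and Col22a1 (1.73) also held, as did Col20a1, at a ratio of 6.36-fold (95% counting interval 1.98 to 32.5).

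The fibroblast anchors moved with these genes, with 10 of 12 called higher and 1, Mfap5, lower in KO#2-labelled libraries, and their summed level did not overlap wt (76.8 to 104 against 22.7 to 33.5 CPM). On TMM-scaled CPM the sum of the pluripotent markers was again lower than in wt without overlap (1934 to 2085 against 2342 to 2666 CPM). Of the 8, 1 was called lower and 3 higher. The order of these sums too depends on the TMM factors, since library sizes alone moved the median log2 difference of all genes from 0.20 to 1.24. The part of the anchors and of the pluripotent markers in the difference was not tested. Replicate 1 of KO#2 at 24 h was the highest of its group for type I collagen. Without it the difference of Col1a1 went from 2.88 ± 0.98 (edgeR adjusted p = 0.0279) to 0.89 (adjusted p = 0.463), and that of Col1a2 from 2.47 ± 0.67 to 1.82 (adjusted p = 0.0508). The Col1a1 call was also lost without wt 24 h replicate 1 (2.94), wt 24 h replicate 2 (2.63) or wt 24 h replicate 3 (3.06).

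Of the other type V chains, Col5a1 (1.82 ± 0.64) lost its call without wt 24 h replicate 1 (1.79), wt 24 h replicate 2 (1.69), wt 24 h replicate 3 (1.98) or KO#2 24 h replicate 1 (0.98), and Col5a3 (1.58 ± 0.52) without wt 24 h replicate 1 (1.33), wt 24 h replicate 2 (1.55) or KO#2 24 h replicate 1 (0.68). Among the fibril-associated genes, Col16a1 (1.86 ± 0.63) lost it without wt 24 h replicate 1 (1.53), wt 24 h replicate 2 (1.92), KO#2 24 h replicate 1 (1.5) or KO#2 24 h replicate 3 (1.81), and Col9a2 (1.93 ± 0.57) without wt 24 h replicate 3 (1.82). Postn (2.51 ± 0.87) lost it without wt 24 h replicate 2 (2.34), wt 24 h replicate 3 (2.05), KO#2 24 h replicate 1 (2.44) or KO#2 24 h replicate 3 (2.18). Col6a4 (1.2 ± 0.44) lost its call without wt 24 h replicate 1 (1.22), wt 24 h replicate 2 (1.05), wt 24 h replicate 3 (1.34), KO#2 24 h replicate 1 (1.09) or KO#2 24 h replicate 2 (1.05). Col13a1 (1.53 ± 0.56) lost it without wt 24 h replicate 1 (1.52), wt 24 h replicate 3 (1.16), KO#2 24 h replicate 1 (1.49), KO#2 24 h replicate 2 (1.54) or KO#2 24 h replicate 3 (1.57), and Col23a1 (2.00 ± 0.70) without wt 24 h replicate 1 (2.22), wt 24 h replicate 2 (2.04) or wt 24 h replicate 3 (1.78). DESeq2 did not call Col23a1 (adjusted p = 0.0780), nor did edgeR with no filter on low counts (adjusted p = 0.103), which also lost Col6a4 (adjusted p = 0.0868).

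**Figure D5:**
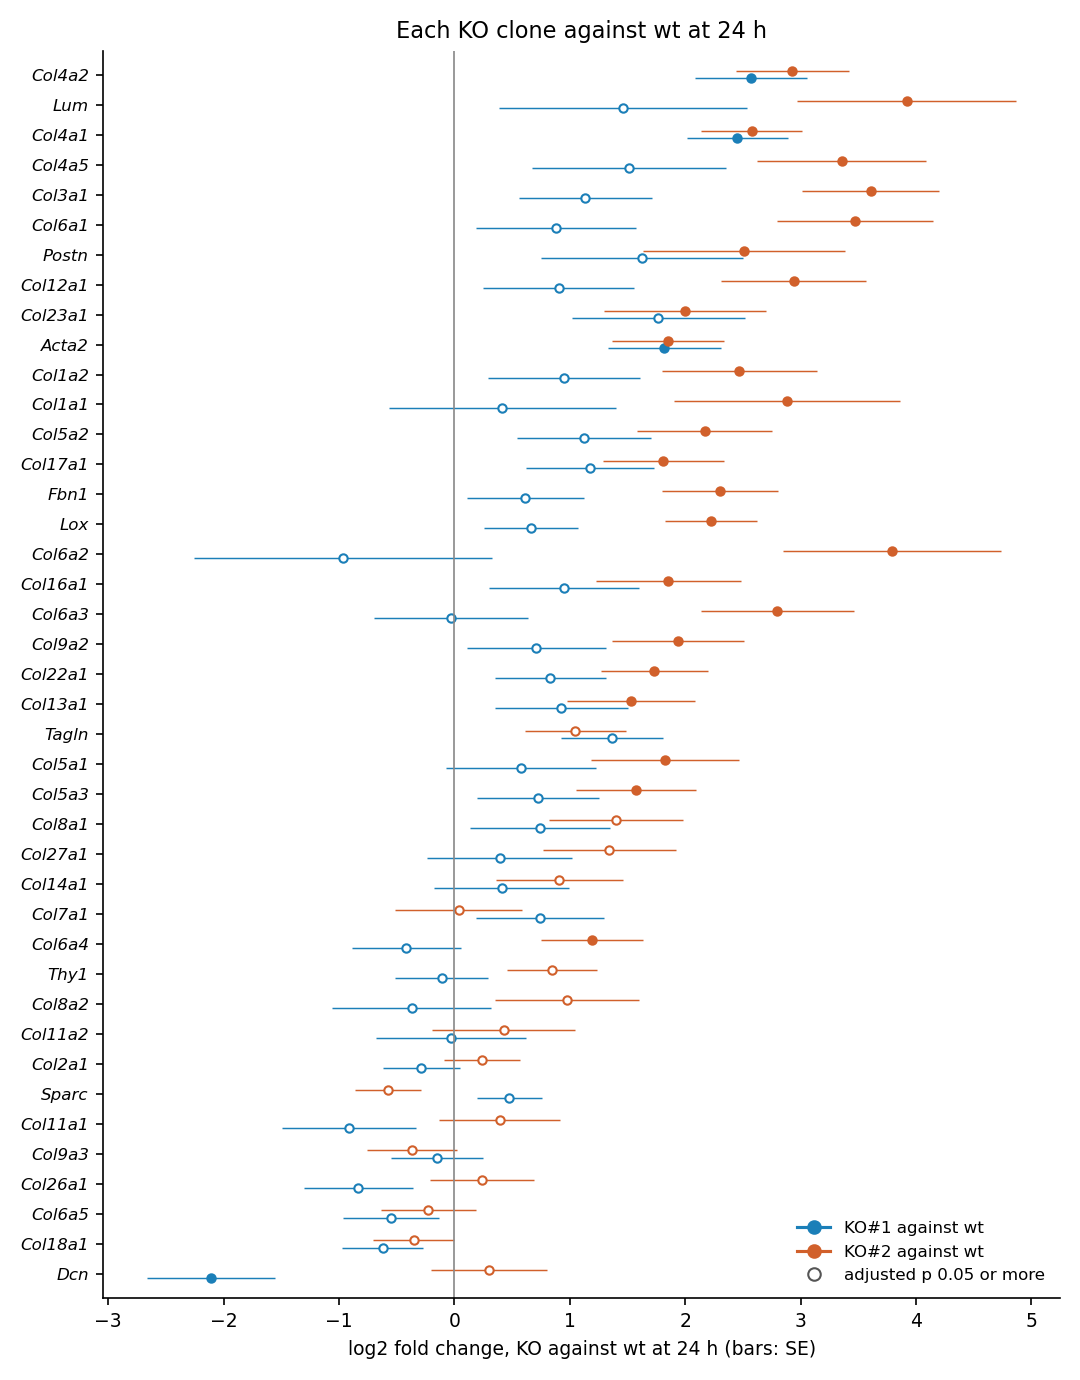
Log2 fold change of KO#1 (blue) and KO#2-labelled libraries (orange) against wt at 24 h (x axis, bars are the SE) of 41 genes (y axis), with open symbols where the adjusted p was 0.05 or more. Col10a1 and Col20a1 are left out because wt held at most 3 counts. The libraries labelled KO#2 lie right of 0 for most genes, and Col4a1 and Col4a2 lie right of 0 for each clone.

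KO#1 differed from wt at 24 h in 4 genes (background 9.84%, 6.25% higher and 3.6% lower). Col4a1 (2.45 ± 0.44, edgeR adjusted p = 0.00114) and Col4a2 (2.57 ± 0.49, adjusted p = 0.00194) were higher with calls that held without each library. Acta2 was higher (1.82 ± 0.49), a call lost without wt 24 h replicate 2 (1.82), wt 24 h replicate 3 (1.67), KO#1 24 h replicate 1 (1.80) or KO#1 24 h replicate 2 (1.55). Dcn was lower (-2.11 ± 0.56), a call lost without wt 24 h replicate 1 (-1.73), KO#1 24 h replicate 2 (-1.80) or KO#1 24 h replicate 3 (-1.65). Without KO#1 24 h replicate 2, 2 of the 43 genes were called.

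Same-numbered wt and KO#1 libraries of 24 h deviated together, and a fit of these 2 groups with the replicate number as a block called 19 of 32 tested genes, 16 higher and 3 lower, where 42.6% of all 13378 genes tested were called, 22% higher and 20.5% lower. The pairing was picked because these same data showed it. The smaller SEs and larger number of calls of this fit are therefore not independent of that choice. In this paired fit Col4a1 was at 2.47 ± 0.11 (edgeR adjusted p = 4.56e-07), Col4a2 at 2.59 ± 0.15, Acta2 at 1.78 ± 0.24, Tagln at 1.39 ± 0.19, Postn at 1.53 ± 0.29, Col3a1 at 1.18 ± 0.19, Col5a2 at 1.16 ± 0.18 and Col1a2 at 0.98 ± 0.18, each higher in KO#1 in 3 of 3 pairs. The others called higher were Col12a1, Col5a1, Col5a3, Col6a1, Col7a1, Fbn1, Lox and Sparc, from 0.47 to 0.96, and Dcn (-2.21 ± 0.31), Col18a1 (-0.64 ± 0.10) and Col26a1 (-0.85 ± 0.30) were lower. Dcn and Col18a1 were lower in every pair, whereas Col26a1 was higher in KO#1 in 1 of 3 pairs. Col1a1 was at 0.45 ± 0.22, not called (adjusted p = 0.136).

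The partners of type IV collagen were read beside it. Col4a1 at 24 h ranged from 7.38 to 14.4 CPM in wt, from 39.5 to 84.0 CPM in KO#1 and from 29.9 to 94.2 CPM in KO#2-labelled libraries, with no overlap between wt and either clone. Of 14 laminins, nidogens and other basement membrane partners, 11 fell and 1 rose at 24 h in wt, 10 fell and 0 rose in KO#1, and 7 fell and 1 rose in KO#2-labelled libraries (24.7%, 20.6% and 13.3% of all genes fell). Lamc1, the shared laminin chain, fell in wt (-2.44 ± 0.41) and KO#1 (-2.38 ± 0.41). Against wt at 24 h, 7 partners were higher in KO#2-labelled libraries, among them Lama1 (2.76 ± 0.44), and 2 were higher and 1 lower in KO#1, against 21.3% of all genes higher in the former and 6.25% in KO#1.

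Markers of primitive and parietal endoderm, cells that make much type IV collagen and laminin, were low. Their 10 genes summed to 3.69, 2.10 and 3.02 CPM in wt at 24 h, 7.79, 5.62 and 6.59 CPM in KO#1 and 25.8, 15.8 and 19.0 CPM in KO#2-labelled libraries, without overlap. None of the 10 was at 0 in a whole group. At 24 h, 8 of the 9 tested were higher in KO#2-labelled libraries than in wt, among them Gata6 (4.33 ± 0.63), and 2 were higher in KO#1, Gata6 (2.13 ± 0.64) and Amn, against 21.3% of all genes higher in the former and 6.25% in KO#1. At 0 h the sums were 7.61 to 10.3, 9.18 to 13.7 and 13.9 to 17.8 CPM. The 6 early mesoderm markers, of which 2 passed the filter, had sums at 24 h of 2.05, 2.00 and 2.16 CPM in wt, 5.66, 8.99 and 12.4 CPM in KO#1 and 11.3, 12.5 and 7.86 CPM in KO#2-labelled libraries, so that wt overlapped neither clone. Eomes, a T-box factor of the early embryo, made up most of these sums and was higher than wt in KO#1 (2.26 ± 0.36) and in KO#2-labelled libraries (2.45 ± 0.35), while Hand1, the other one tested, was at 0 in all 3 wt libraries and was called higher in KO#2-labelled libraries alone. At 0 h the mesoderm sums were 7.25 to 15.4 CPM in wt, 7.03 to 7.41 CPM in KO#1 and 2.88 to 5.28 CPM in KO#2-labelled libraries. The part of the endoderm and mesoderm markers in the Col4a1 and Col4a2 levels was not tested.

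The difference in the 24 h response between KO#1 and wt was called for 0 of the 43 genes with edgeR, against 0.391% of all genes (0.253% higher and 0.138% lower). At an unadjusted p under 0.05 there were 6, against 10.1% of all genes, and DESeq2 called 2, against 1.66% of all genes. For KO#2-labelled libraries it was called for 2 genes, Col9a2 and Dcn, against 1.47% of all genes (0.951% higher and 0.517% lower). Of the genes in step with the fibroblast anchors, Col3a1 differed by 1.98 ± 0.77 (edgeR adjusted p = 0.145), not called. The larger number of falls in wt than in KO#2-labelled libraries is thus not shown to be a different response for these genes.

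The enzymes and chaperones that fold and process collagen were read from a list of their own. Of 26 tested genes of collagen folding and processing, 9 fell and 3 rose in wt, 9 fell and 1 rose in KO#1, and 7 fell and 1 rose in KO#2-labelled libraries. These are 46.2%, 38.5% and 30.8% of the list, against 50.7%, 40.8% and 26% of all genes. P4ha1 and P4ha2, catalytic subunits of the prolyl 4-hydroxylase that stabilises the collagen helix, fell in all 3 lines (-1.63, -1.24 and -0.84 for P4ha1, and -1.82, -2.14 and -1.81 for P4ha2). Pcolce, which enhances procollagen cleavage, rose in all 3 (1.69, 2.59 and 1.12).

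Of 7 tested collagen receptors, 2 rose in each line, 3 fell in wt and 2 fell in each clone, where 50.7% of all genes were called in wt, 40.8% in KO#1 and 26% in KO#2-labelled libraries. With 7 genes these counts are not read as particular to the receptors. Ddr2, the receptor of mesenchymal cells for fibrillar collagen, fell in all 3 lines (-2.66, -2.54 and -1.97) and Ddr1, the epithelial receptor, rose in all 3 (1.16, 1.07 and 1.11). Itgb1, the integrin chain that collagen receptors share, was not called between the times. Of 13 other tested fibroblast matrix genes, 10 fell and 1 rose in wt, 10 fell in KO#1, and 8 fell and 1 rose in KO#2-labelled libraries. Of all genes, 24.7%, 20.6% and 13.3% fell and 26%, 20.1% and 12.7% rose in wt, KO#1 and KO#2-labelled libraries. Fn1, fibronectin, fell by 4.00, 3.59 and 1.96 on the log2 scale. Markers of endothelial cells, which also make matrix, were read beside these genes. The 6 summed to 118 to 135 CPM in wt, 30.6 to 73.0 CPM in KO#1 and 38.0 to 63.9 CPM in KO#2-labelled libraries at 0 h, and to 58.5 to 72.7, 46.6 to 66.1 and 25.0 to 29.6 CPM at 24 h. Most of the sum came from Egfl7 and Vwf, of which Vwf fell in all 3 lines (-6.24, -3.73 and -3.69) and Egfl7 rose (0.94, 1.15 and 0.75). Cdh5 and Emcn, which define the type, were at 0 in all 6 wt libraries and at no more than 0.193 CPM elsewhere. The part of these markers in the matrix genes was not tested.

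Some further calls were lost under other settings, with the log2 fold change of that setting given here. With library sizes in place of TMM factors these were, in wt between the times, Col8a2 (2.34), and in KO#1 between the times Col7a1 (1.25) and Dcn (1.35). In the same setting they were Col11a1 (-1.43), Col14a1 (1.49), Col17a1 (-1.35) and Col9a3 (-1.32) between the times for KO#2-labelled libraries, and Col9a2 (-1.70) for KO#1 against wt at 0 h. With only the groups compared in the fit, the calls lost between the times were those of Col11a1 (-1.68), Col2a1 (1.05), Col9a2 (-1.63) and Col9a3 (-1.16) in KO#1 and of Col5a1 (-1.79) in KO#2-labelled libraries. Against wt that fit lost Col9a2 (-1.91) in KO#1 at 0 h, Dcn (-2.08) in KO#1 at 24 h, and Col10a1 (3.12), Col6a1 (1.73) and Fbn1 (1.30) in KO#2-labelled libraries at 0 h. Between the times, DESeq2 and the fit with no filter lost Col14a1 in KO#2-labelled libraries (1.60 and 1.55), and the latter lost Col9a3 (-1.16) in KO#1. RLE factors lost Col10a1 (2.99) for KO#2-labelled libraries against wt at 0 h.

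Some of these genes share ground with others in the GENCODE M21 annotation. Col18a1 overlaps Slc19a1 on the opposite strand, Tagln overlaps Pcsk7 and Col9a3 overlaps Tcfl5, and since the use of strand in counting is not given in the sources used here, reads of these pairs may not be told apart. The libraries held between 3466436 and 23872837 counts, and 3 counts correspond to between 0.116 and 0.983 CPM. A value resting on so few counts, printed here for several low genes, is imprecise.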

How the data were processed

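Counts per gene were taken as deposited. The authors sequenced stranded total RNA libraries as paired ends on a NovaSeq, trimmed reads with Trim Galore, removed ribosomal sequences, aligned with STAR to GRCm38 and marked duplicates with Picard. The methods name Salmon, StringTie and DESeq2, and the step that wrote the counts, its annotation release and its use of strand are not given in the sources used here. No 2 of the 18 libraries were identical (0 of 153 pairs).

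Samples were grouped by their labels into 6 groups of 3. Differential expression was tested in R 4.3.3 with edgeR 4.0.16 (TMM factors, filterByExpr with a minimum count of 10, quasi-likelihood test of a 6-group model, Benjamini-Hochberg over 16619 genes, threshold 0.05). The common dispersion was 0.0970. Changes are log2 ± SE. Alternatives were DESeq2 1.42.0, RLE factors, library sizes alone, other filters, fits of the groups compared, a replicate block, and each library left out. Same-numbered wt and KO#1 libraries of 24 h correlated in their deviations from the group means in every pair (r = 0.223 to 0.587), a pairing taken from the data and not from the labels, and no other pair of groups did so in every pair. Levels between genes are CPM per kilobase of exon union in GENCODE M21, which holds 45143 of the 45706 IDs. The code was tested on simulated data. P-values measure the spread between these libraries.

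The genes and lists were chosen with earlier results of these data known. Genes given in every library are the up to 3 highest of each role list and any called in a difference of the 24 h response. Those called between clone and wt are named with their change, and other lists by their 3 highest genes and called ones. Col3a1 and Col5a1, chosen after their values were seen, are given in addition. Figures were drawn with matplotlib 3.10.9.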

Additional observations from a re-analysis of the deposited data

Results flagged for a closer look

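The response of KO#2-labelled libraries to 24 h differed from that of wt for Dcn, by the interaction term of edgeR's quasi-likelihood test (adjusted p = 0.0130). Dcn rose from 0 counts in all 3 wt libraries to 8.32, 4.61 and 4.44 CPM, and went from 3.17, 4.54 and 4.41 CPM to 9.66, 4.56 and 7.29 CPM in KO#2-labelled libraries. The call was lost without wt 0 h replicate 3 (adjusted p = 0.0503).

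The same term was called for Col9a2 (adjusted p = 0.0130), with 27.2, 10.5 and 13.7 CPM at 0 h and 1.11, 0.701 and 0.679 CPM at 24 h in wt. In KO#2-labelled libraries the values were 4.83, 3.42 and 1.82 CPM at 0 h and 2.25, 4.06 and 3.39 CPM at 24 h. This call held with each library left out. The causes of both differences were not tested.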

How the results depend on the processing

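Of 133 changes of named genes that were called, none reversed under other settings (53 of 927 values lost the call) or with 1 library left out (137 of 809). With at least 10 counts required in every library, fewer genes were tested and the calls at 24 h against 0 h were 17 in wt, 13 in KO#1 and 9 in KO#2-labelled libraries, those against wt at 0 h were 1 in KO#1 and 10 in KO#2-labelled libraries, and those of the latter at 24 h were 16 with 0 differences of response. Dcn and Col9a2, the genes called for their response in the main fit, do not pass this filter and could not be called. Over all genes this filter gave 60.4%, 48.0% and 26.9% called between the times, 4.92% and 40.5% at 0 h, 41.9% for KO#2-labelled libraries at 24 h and 2.76% for their response. With no filter on low counts, KO#1 had 11 calls against wt at 0 h (5.23% of all genes) and 9 at 24 h (6.87%), and differences of response numbered 2 for KO#1 (1.06%) and 12 for KO#2-labelled libraries (5.90%, against 1.47% with the filter). DESeq2 gave 2 (1.66%) and 5 (8.06%) such differences, and library sizes alone gave 6 for KO#2-labelled libraries (4.82%). The cause was not tested. Library sizes alone moved the median log2 change of all genes to -0.58 in wt and -0.78 in KO#1 at 24 h against 0 h, and to 1.24 for KO#2-labelled libraries against wt at 24 h.

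Genes in step with the anchors numbered 4, and 11 with library sizes alone, 0 on deviations from group means, 7 with summed anchor CPM and, chosen after seeing the data, 8 without Twist1 and Mfap5. The fit with the replicate block, a pairing chosen after seeing the data, gave 19 calls for KO#1 against wt at 24 h where the 2 groups were fitted alone. With the replicate number as a block over all 18 libraries, which share only a number in the other groups, calls were 31, 28 and 21 at 24 h against 0 h in wt, KO#1 and KO#2-labelled libraries, 2 and 16 against wt at 0 h, 4 and 24 at 24 h, and 0 and 2 for the differences of response. Of the 133 called changes of named genes, 7 lost the call in that fit, so similar totals do not mean the same genes.

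With 1 library left out, calls at 24 h against 0 h lay between 27 and 32 for wt, 23 and 27 for KO#1, 15 and 23 for KO#2-labelled libraries, those against wt at 0 h from 2 to 4 and from 9 to 18, those at 24 h from 2 to 4 and from 18 to 23, and the differences of response from 0 to 1 and from 1 to 3. Genes in step ranged from 1 to 5, and genes apart from 14 to 16. The lowest values came without wt 0 h replicate 3 (9 calls for KO#2-labelled libraries at 0 h, 1 difference of response), without KO#1 24 h replicate 2 (2 calls at 24 h) and without KO#2 0 h replicate 3 (1 gene in step). Without KO#2 0 h replicate 3 and 24 h replicate 1, chosen after seeing the data, KO#2-labelled libraries had 17 calls between the times, 12 against wt at 0 h and 21 at 24 h.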

Other observations

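Of 6 ratios of paired genes within a library, chosen after their values were seen, 2 did not overlap between the times. No share over other pairs of genes was computed, so this count is not read as particular to these pairs. The ratio of Col4a1 to Col4a2 CPM lay between 1.38 and 2.04 in the 9 libraries of 0 h (median 1.72) and between 2.43 and 4.19 in the 9 of 24 h (median 2.81), without overlap. The ratio of Acta2 to Tagln lay between 1.93 and 3.24 at 0 h and between 0.459 and 1.06 at 24 h, also without overlap. The ratio of the type I chains Col1a1 and Col1a2 overlapped, with 0.489 to 2.62 at 0 h and 0.221 to 0.989 at 24 h. That of Col5a1 and Col5a2 (0.262 to 1.31 and 0.425 to 1.37) and that of Col6a1 and Col6a2 (0.633 to 2.81 and 1.82 to 15) overlapped as well, as did that of Dcn and Lum, which rests on few Lum counts.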
